A study of Homo sapiens with 30 samples.

Results

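The comparison set 3 arrays of THP-1 cells kept for 24 h with multi-walled carbon nanotubes (MWCNT) at 100 µg/ml against 3 arrays of the same cells kept for 24 h with 10 µg/ml, out of 30 arrays in all. Arrays were assigned to the groups by their labelled material, dose and time. THP-1 is an established human monocytic leukaemia line; before any particle was added, all cells had received the phorbol ester PMA (82 nM, 24 h), which makes them adhere, and were then washed, scraped and plated again. The other groups used here were 100 and 10 µg/ml of titanium dioxide nanobelts (TiO2-NB) at 24 h, 100 and 10 µg/ml MWCNT at 1 h, and a particle-free control at 24 h, each of 3 arrays that the labels call biological replicates. Both doses shared the PMA treatment, and the model is 1 leukaemia line, so a dose difference here is one between flasks of PMA-treated THP-1 cells.

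MWCNT are stiff, fibre-like cylinders of nested carbon sheets, and TiO2-NB are ribbon-shaped crystals of titanium dioxide. Macrophages engulf such particles through scavenger and phagocytic receptors, and long fibres can damage the membrane of the compartment that holds them. Macrophages that sense particles or microbes typically switch on cytokine genes through NF-kappaB, an inducible transcription factor, and interferon-stimulated genes through an autocrine loop of type I interferon. PMA pushes THP-1 cells out of the cell cycle and towards a macrophage-like state, so genes of DNA replication and mitosis typically fall as the cells differentiate. No array here came from cells without PMA, so such a fall was not measured. In bulk RNA, a change in how many cells express a gene cannot be told apart from a change in RNA per cell.

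Each value below is a log2 probe set intensity as deposited, and 10050 genes with a kept probe set were tested. Medians of the 6 arrays lay between 6.38 and 6.40, and pairs of arrays correlated at 0.994 to 0.998 within the 100 µg/ml group, 0.994 to 0.997 within the 10 µg/ml group and 0.989 to 0.995 between them. The first principal component of the 6 arrays, with 45.4% of the variance, put the 100 µg/ml arrays at 10.8, 9.69 and 10.4 and the 10 µg/ml arrays at -13.4, -11.2 and -6.32. The second, with 35.3%, put replicate 1 of 100 µg/ml at -12.3 and replicate 3 of 10 µg/ml at -13.6, while the other 4 arrays lay between 4.35 and 8.19. These 2 arrays therefore stand apart from their groups, and what sets them apart was not tested; results that rest on them are given with and without them. All 9 macrophage markers with a probe set of 1 gene, among them CD14, ITGAM, CSF1R and SPI1, lay above the array median on all 6 arrays; CD68 shares its probe set with another gene. All 9 had a negative change, and FCER1G was called (-0.27, limma adjusted p = 0.00936). Of the markers of other cell types, 1 of 5 epithelial, 1 of 5 fibroblast, 0 of 4 lymphocyte and 1 of 4 endothelial genes lay above the median on all 6 arrays. EPCAM, KRT19, CDH1, COL3A1, LUM, MS4A1, CDH5 and KDR were not kept by the filter and so not tested. Of the rest 0 was called, against 4.67% over all genes, a share at which so few genes would hold few calls or none. The lowest group mean among the epithelial markers was 3.40 at 100 µg/ml and 3.46 at 10 µg/ml, and the highest was 6.57 and 6.58.

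At 100 µg/ml, genes of DNA replication, mitosis, the interferon response, NF-kappaB feedback and chemokines were higher than at 10 µg/ml, while the neuronal pentraxin gene NPTX1 and the cytochrome P450 gene CYP1B1 were the most reduced. In the limma fit, 469 of 10050 genes (4.67%) had an adjusted p under 0.05 and are said here to be called; 312 (3.1%) were higher and 157 (1.56%) lower at 100 µg/ml. Of the called genes, 173 (1.72% of those tested) also differed by at least 1.5-fold, 131 (1.3%) higher and 42 (0.418%) lower. The median log2 fold change over all genes was -0.0041, and the fitted changes ran from -2.19 to 1.94. The smallest called change was 0.17 on the log2 scale, and genes had a residual SD of 0.13 in the median. The arrays of the 2 doses did not overlap in 2533 genes (25.2%), 13.6% with all 100 µg/ml arrays higher and 11.7% with all lower. The number called depended on the arrays used: it was 253 without the 2 arrays that stand apart, and between 197 and 411 with any 1 of the 6 arrays left out. The 4 arrays whose removal cut the count by more than 1.5 times were replicates 2 and 3 of 100 µg/ml (245 and 218 genes left) and replicates 1 and 2 of 10 µg/ml (197 and 267). All 469 genes kept their sign in each of these fits.

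**Figure D1:**
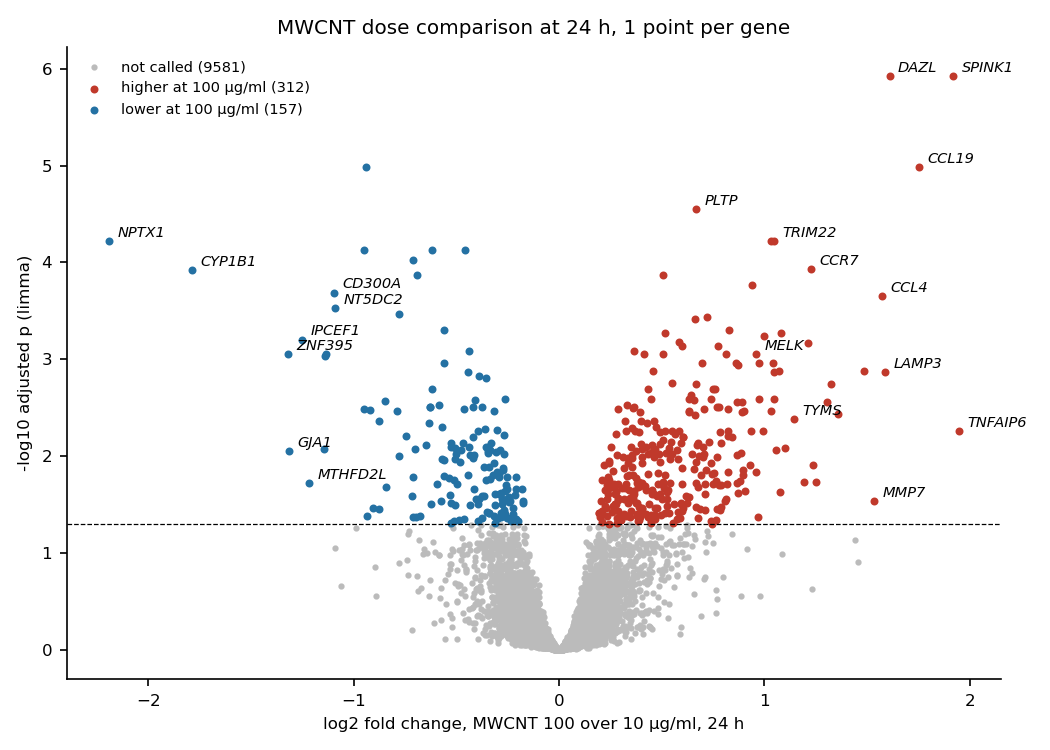
Change of every gene between 100 and 10 µg/ml MWCNT at 24 h. The x axis is the log2 fold change (100 over 10 µg/ml), the y axis the -log10 of limma's adjusted p, and each point is 1 of 10050 genes; the dashed line marks an adjusted p of 0.05. Called genes are in red (312 higher at 100 µg/ml) and blue (157 lower), with TNFAIP6 furthest to the right (1.94) and NPTX1 furthest to the left (-2.19).

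Among the 20 measured genes of NF-kappaB subunits and feedback, 10 (50%) were called higher and 0 lower, with a median log2 fold change of 0.35 against -0.0041 over all genes. The largest rise of all genes was that of TNFAIP6, which encodes a secreted hyaluronan-binding protein made in inflammation. TNFAIP6 read 8.90, 8.74 and 8.83 on the 100 µg/ml arrays, against 6.80, 6.74 and 7.09 on the 10 µg/ml arrays. The arrays of the 2 doses lay well apart and within each dose they lay close together. The log2 fold change was 1.94 ± 0.40 (SE), a 3.85-fold rise with an adjusted p of 0.00543 in limma. TRAF1, an adaptor of TNF receptors, read 8.51, 8.33 and 8.43 at 100 µg/ml, against 7.62, 7.60 and 7.60 at 10 µg/ml, a rise of 0.82 ± 0.17 (limma adjusted p = 0.00543). TNFAIP3, the A20 enzyme that restrains NF-kappaB, rose by 0.54 (limma adjusted p = 0.0108), and its partner TNIP1 by 0.52 (0.00053 in the same fit). GCH1, which opens tetrahydrobiopterin synthesis, rose by 0.89 (limma adjusted p = 0.00911). The other called members were PTX3, TNFAIP2, ICAM1, BCL2A1 and TNIP2, with rises of 0.33 to 0.50. The transcription factor subunits themselves were not called: NFKB1 had a change of 0.31, REL of 0.31, RELB of 0.14, NFKB2 of 0.091 and RELA of 0.039, and the inhibitor gene NFKBIA had 0.36. The list's count was 5 without the 2 arrays that stand apart and 4 to 10 with 1 array left out. The call of TRAF1 was lost without those 2 arrays (limma adjusted p between 6.28e-05 and 0.0583 over the alternatives). TNFAIP3 lost its call without replicate 1 or 2 of 10 µg/ml (between 0.000101 and 0.0698), and GCH1 without replicate 1 of 10 µg/ml or with only the 24 h arrays fitted (between 0.000102 and 0.0685).

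Of 27 measured cytokine and chemokine genes, 9 (33.3%) were called higher and 0 lower, with a median change of 0.44. The chemokine CCL4, which attracts leukocytes, read 10.97, 10.96 and 10.99 at 100 µg/ml, against 9.37, 9.52 and 9.32 at 10 µg/ml. The arrays of the higher dose lay very close together, and the gap between the doses was far wider. The rise was 1.57 ± 0.23, or 2.97-fold (limma adjusted p = 0.000222); CCL4 has a near-identical copy in the genome, so the probes may read both. CCL8, a monocyte-attracting chemokine, read 6.22, 7.45 and 7.70 at 100 µg/ml, against 5.92, 5.69 and 5.31 at 10 µg/ml. Replicate 1 of 100 µg/ml lay nearer to the lower dose than to its own group. CCL8 rose by 1.49 ± 0.26 (limma adjusted p = 0.00132), and its call was lost when only the 6 arrays were fitted (adjusted p between 1.23e-06 and 0.0817 over the alternatives).

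CXCL10, an interferon-induced ligand of CXCR3, read 7.47, 8.04 and 8.26 at 100 µg/ml, against 6.75, 6.73 and 6.65 at 10 µg/ml, a rise of 1.21 ± 0.20 (limma adjusted p = 0.000671). CCL20, the ligand of CCR6, read 12.91, 12.67 and 12.59 at 100 µg/ml, against 11.56, 11.60 and 12.30 at 10 µg/ml. Replicate 3 of 10 µg/ml was the highest of its group and came closest to the 100 µg/ml arrays. The rise of CCL20 was 0.91 (limma adjusted p = 0.0226) and that of CCL2, the main monocyte chemoattractant, 0.74 (limma adjusted p = 0.0492). Both calls were lost in several of the alternatives, with adjusted p between 0.000153 and 0.139 for CCL20 and between 0.000623 and 0.197 for CCL2. CXCL1, IL23A, CXCL2 and LIF rose by 0.71 to 0.87; the first and the third attract neutrophils, IL23A is a subunit of interleukin 23, and LIF is a cytokine of the interleukin 6 family. IL1B and TNF, classical inflammatory cytokines, were not called: IL1B read 13.44, 13.79 and 13.81 at 100 µg/ml, against 13.68, 13.65 and 13.35 at 10 µg/ml, and TNF read 9.71, 9.36 and 9.39, against 8.85, 8.96 and 9.43. For both genes the arrays of the doses overlapped, and the 95% intervals of the log2 fold change were -0.30 to 0.54 for IL1B and -0.021 to 0.83 for TNF. CXCL8 had a change of 0.28 (limma adjusted p = 0.162) by its brightest probe set, while its other kept probe set gave 0.59 and passed (limma adjusted p = 0.0205 over all kept probe sets); 3 alternatives called the gene. EBI3 had a larger change, 1.46, that did not pass (limma adjusted p = 0.122). The cytokine count was 6 without the 2 arrays that stand apart and 5 to 8 with 1 array left out.

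**Figure D2:**
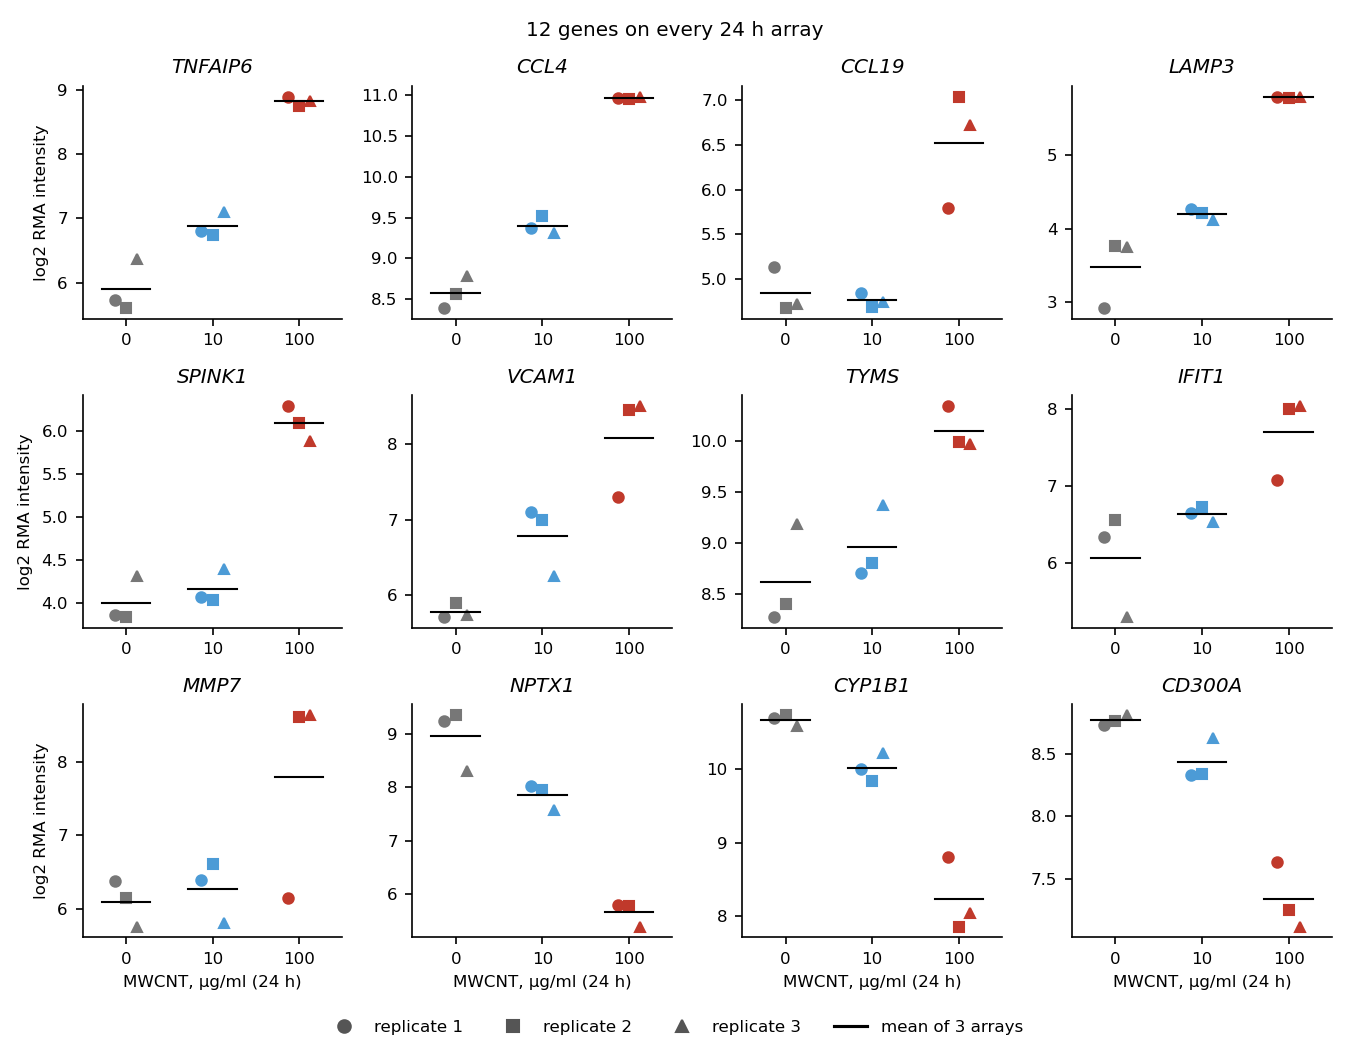
Level of 12 genes on every 24 h array. In each panel the x axis is the MWCNT dose (0, 10 and 100 µg/ml), the y axis the log2 RMA intensity (each panel has its own range), symbols are replicates 1 to 3 and the black line is the mean of 3 arrays. TNFAIP6, CCL4 and LAMP3 sit tightly at 100 µg/ml and apart from the other doses, in CCL19, VCAM1, IFIT1 and MMP7 replicate 1 of 100 µg/ml is the lowest of its group, and NPTX1, CYP1B1 and CD300A are lowest at 100 µg/ml.

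Dendritic cell maturation genes are genes that antigen-presenting cells switch on as they move to lymph nodes. Of 20 measured, 5 (25%) were called higher and 0 lower, and the median change was 0.079. CCL19, a chemokine that guides cells to lymph nodes, read 5.79, 7.04 and 6.72 at 100 µg/ml, against 4.85, 4.69 and 4.75 at 10 µg/ml. Replicate 1 was the lowest of the higher dose. CCL19 rose by 1.75 ± 0.20, or 3.37-fold (limma adjusted p = 1.04e-05). Its receptor CCR7 read 6.04, 5.87 and 6.07 at 100 µg/ml, against 4.95, 4.56 and 4.80 at 10 µg/ml, and rose by 1.22 ± 0.17 (limma adjusted p = 0.000116). The 10 µg/ml arrays of CCL19 and CCR7 lay near the arrays' 25th percentile, 4.78 to 4.83, so the sizes of these rises are uncertain. LAMP3, found in lysosomes of mature dendritic cells and also interferon-inducible, read 5.80, 5.78 and 5.79 at 100 µg/ml, against 4.27, 4.22 and 4.12 at 10 µg/ml. The spread within each dose was small beside the gap, and the rise was 1.59 ± 0.28 (limma adjusted p = 0.00136). The 10 µg/ml and control arrays of LAMP3 lay below the array's 25th percentile, and with readings below that level set to it the difference was 0.98. The co-stimulatory molecules CD80 and CD83 rose by 0.40 and 0.26, while CD86 (-0.035), CD40 (0.28), CCL17 (-0.23) and CCL22 (-0.099) were not called. The call of CD80 was lost in 6 alternatives, among them the fit of the 6 arrays alone (adjusted p between 6.68e-05 and 0.128).

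Interferon-stimulated genes, the antiviral effectors that cells make downstream of type I interferon, were higher as a group at 100 than at 10 µg/ml. Here and for the other lists, a rise is a difference between the doses at 24 h and not a change over time. All 36 measured members had a positive change, 18 (50%) were called higher and 0 lower, and the median was 0.48. The mean of the list, set against the mean of the control arrays, was 0.51, 0.85 and 0.93 on the 100 µg/ml arrays, against 0.18, 0.27 and 0.26 on the 10 µg/ml arrays. Replicate 1 of 100 µg/ml was the lowest of its dose and still above all arrays of the lower dose. TRIM22, an antiviral ubiquitin ligase, read 7.53, 8.18 and 8.30 at 100 µg/ml, against 6.77, 7.02 and 7.07 at 10 µg/ml, and rose by 1.05 ± 0.13 (limma adjusted p = 6.01e-05). IFI44L read 6.47, 6.80 and 7.11 at 100 µg/ml, against 5.49, 5.67 and 6.12 at 10 µg/ml, and rose by 1.03 ± 0.20 (limma adjusted p = 0.00343). IFIT1, which binds foreign RNA caps, read 7.08, 8.01 and 8.05 at 100 µg/ml, against 6.65, 6.73 and 6.53 at 10 µg/ml, and rose by 1.08 ± 0.28 (limma adjusted p = 0.023). The groups did not overlap in any of these genes, and in each of them replicate 1 was the lowest 100 µg/ml array. The call of IFIT1 was lost in 6 alternatives, including the removal of any array but replicate 1 of 100 µg/ml (adjusted p between 7.23e-05 and 0.139). MX1 and MX2, dynamin-like antiviral proteins, rose by 0.93 and 0.87, the RNA sensors OAS2 and OAS3 by 0.78 and 0.69, the ubiquitin-like ISG15 by 0.63 and the transcription factor subunit IRF9 by 0.35. IFIT2 (0.19), IFI6 (0.14) and USP18 (0.22) were among the members not called. Without the 2 arrays that stand apart the median was 0.66 and 18 members were called; with 1 array left out the count was 10 to 20, and it was 9 when only the 6 arrays were fitted.

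The interferon-stimulated response element is the promoter motif bound by the factors that interferon activates. Its core, GAAA followed after any 2 bases by GAAA, was searched on both strands in the window of 300 bases around each gene start in RefSeq's table for GRCh38.p14. Of 27 list members with a window 18 (66.7%) held it, among them 10 of 14 called, against 3% of 8129 tested genes with a window and 3.65% of all 27305 windows. Here and for the motifs below, list members were picked by pathway, so their share describes the list and not the dose. The 4 called members with the largest rise and a window are shown with each match in capitals, to set the element beside genes that rose together; a match is a description of the letters and not a bound site. They lie on the plus strand at chr10:89392373-89392672 (IFIT1), chr1:78620198-78620497 (IFI44L), chr1:78649539-78649838 (IFI44) and chr21:41420308-41420607 (MX1).
IFIT1: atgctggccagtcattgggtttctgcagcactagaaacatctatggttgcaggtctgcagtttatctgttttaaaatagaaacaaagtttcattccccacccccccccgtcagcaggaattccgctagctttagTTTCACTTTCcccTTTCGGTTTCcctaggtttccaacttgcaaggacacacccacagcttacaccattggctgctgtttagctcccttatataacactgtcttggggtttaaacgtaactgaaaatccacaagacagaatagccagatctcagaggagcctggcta
IFI44L: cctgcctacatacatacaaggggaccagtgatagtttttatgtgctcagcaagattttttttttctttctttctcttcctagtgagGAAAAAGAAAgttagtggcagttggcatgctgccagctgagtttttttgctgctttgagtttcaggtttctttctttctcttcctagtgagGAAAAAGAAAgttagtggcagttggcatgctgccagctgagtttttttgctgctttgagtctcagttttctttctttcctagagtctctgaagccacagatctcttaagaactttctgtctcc
IFI44: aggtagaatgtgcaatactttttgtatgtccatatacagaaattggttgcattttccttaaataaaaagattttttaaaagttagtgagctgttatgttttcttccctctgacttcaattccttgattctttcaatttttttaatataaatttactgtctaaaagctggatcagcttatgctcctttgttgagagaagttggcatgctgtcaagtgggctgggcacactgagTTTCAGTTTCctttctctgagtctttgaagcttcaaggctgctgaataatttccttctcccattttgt
MX1: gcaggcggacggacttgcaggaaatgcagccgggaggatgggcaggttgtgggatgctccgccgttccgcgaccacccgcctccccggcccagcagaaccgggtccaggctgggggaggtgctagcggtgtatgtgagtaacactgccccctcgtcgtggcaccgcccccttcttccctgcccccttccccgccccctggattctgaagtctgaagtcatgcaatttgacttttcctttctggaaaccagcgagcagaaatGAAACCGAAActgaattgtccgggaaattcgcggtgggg
IFIT1 held 2 matches, at -116 and -103 from the start, IFI44L held 2, at -164 and -73, IFI44 held 1 at -18 and MX1 held 1 at 12. IFI44 read 8.46, 8.91 and 9.12 at 100 µg/ml, against 7.64, 7.90 and 7.99 at 10 µg/ml, and MX1 read 8.62, 9.22 and 9.40, against 8.19, 8.14 and 8.11. In both genes every 100 µg/ml array was above every 10 µg/ml array, with replicate 1 the lowest of the higher dose. For NF-kappaB feedback genes, the kappaB motif, GGGA followed after any 2 bases by TTCC, was found in 4 of 16 windows (25%), 1 of 9 called, against 1.73% of tested genes.

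The list with the largest share called was DNA replication: 25 of 38 measured members (65.8%) were higher and 0 lower, with a median of 0.63 and 37 positive changes. The list mean against the control arrays was 0.93, 0.70 and 0.71 on the 100 µg/ml arrays, against -0.003, 0.084 and 0.38 on the 10 µg/ml arrays, and the control arrays themselves spread over -0.20, -0.055 and 0.25. The doses did not overlap, and the arrays that stand apart were the highest of each dose. TYMS, thymidylate synthase, which makes the DNA precursor dTMP, read 10.34, 9.99 and 9.97 at 100 µg/ml, against 8.70, 8.80 and 9.37 at 10 µg/ml. It rose by 1.15 ± 0.23 (limma adjusted p = 0.00412), while another kept probe set of TYMS gave 0.16. RRM2, the regulated subunit of ribonucleotide reductase, read 9.59, 9.40 and 9.37 at 100 µg/ml, against 8.12, 8.33 and 8.61 at 10 µg/ml, and rose by 1.10 ± 0.24 (limma adjusted p = 0.00814). MCM10, which helps to activate the replicative helicase, read 5.93, 5.67 and 5.60 at 100 µg/ml, against 4.53, 4.55 and 4.98 at 10 µg/ml, and rose by 1.05 ± 0.20 (limma adjusted p = 0.00253). In all 3 genes the doses were separate, with replicate 1 the highest at 100 µg/ml and replicate 3 the highest at 10 µg/ml. Replicates 1 and 2 of MCM10 at 10 µg/ml lay below the level of the filter on dim probe sets, 4.78 to 4.83. The size of the MCM10 rise is therefore uncertain.

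Cyclin E2 (CCNE2), which drives entry into S phase, read 8.50, 7.97 and 8.18 at 100 µg/ml, against 6.72, 6.84 and 7.52 at 10 µg/ml, a rise of 1.19 ± 0.29 (limma adjusted p = 0.0182). CDC6, which loads the helicase at origins, rose by 0.94, the helicase subunit genes GINS2, GINS1 and CDC45 by 0.94, 0.89 and 0.89, and PCNA, the sliding clamp of DNA polymerases, by 0.82. MCM6 and MCM3 rose by 0.75 and 0.74, whereas MCM2, MCM4, MCM5 and MCM7 had changes of 0.43 to 0.71 that did not pass. E2F8, a repressor that acts in S phase, read 6.25, 5.74 and 5.72 at 100 µg/ml, against 4.34, 4.29 and 5.02 at 10 µg/ml, and rose by 1.36 ± 0.27 (limma adjusted p = 0.00368). Replicates 1 and 2 of E2F8 at 10 µg/ml also lay below the filter level, 4.78 to 4.83, so the size of this rise is uncertain. The count of called replication genes was 13 without the 2 arrays that stand apart, 16 with only the 6 arrays fitted, and 9 to 26 with 1 array left out. CCNE2 lost its call when replicate 1 or 3 of 100 µg/ml or replicate 1 or 2 of 10 µg/ml was left out (adjusted p between 0.000183 and 0.114), and RRM2 without replicate 1 of 10 µg/ml (between 6.21e-05 and 0.0596).

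E2F factors switch on replication genes, and 2 spellings of their motif, TTTGGCGC and TTTCCCGC, were searched in the same windows on both strands. It was present in 15 of 34 replication genes with a window (44.1%), 13 of 24 called, against 3.59% of tested genes and 2.31% of all windows. The 4 called members with the largest rise that have a window and can be shown follow, with matches in capitals; they lie on the plus strand of GRCh38.p14 (RefSeq) at chr18:657403-657702 (TYMS), chr2:10122489-10122788 (RRM2), chr10:13161308-13161607 (MCM10) and chr17:40287629-40287928 (CDC6).
TYMS: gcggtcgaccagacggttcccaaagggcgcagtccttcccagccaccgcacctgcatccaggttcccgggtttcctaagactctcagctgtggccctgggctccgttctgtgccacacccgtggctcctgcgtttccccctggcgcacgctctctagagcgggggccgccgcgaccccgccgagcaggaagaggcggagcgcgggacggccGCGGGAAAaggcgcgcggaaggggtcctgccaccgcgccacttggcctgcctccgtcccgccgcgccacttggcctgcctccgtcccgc
RRM2: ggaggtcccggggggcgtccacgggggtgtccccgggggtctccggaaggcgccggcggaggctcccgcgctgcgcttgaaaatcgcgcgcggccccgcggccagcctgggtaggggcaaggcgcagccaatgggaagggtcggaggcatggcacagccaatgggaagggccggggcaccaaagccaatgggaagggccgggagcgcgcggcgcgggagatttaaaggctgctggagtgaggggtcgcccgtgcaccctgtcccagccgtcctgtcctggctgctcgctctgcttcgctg
MCM10: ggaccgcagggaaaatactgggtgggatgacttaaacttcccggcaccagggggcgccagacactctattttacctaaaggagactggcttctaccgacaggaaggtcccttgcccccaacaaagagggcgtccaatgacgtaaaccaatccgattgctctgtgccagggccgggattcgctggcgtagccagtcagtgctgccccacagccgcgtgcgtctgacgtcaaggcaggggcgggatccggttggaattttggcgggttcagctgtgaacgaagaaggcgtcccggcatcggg
CDC6: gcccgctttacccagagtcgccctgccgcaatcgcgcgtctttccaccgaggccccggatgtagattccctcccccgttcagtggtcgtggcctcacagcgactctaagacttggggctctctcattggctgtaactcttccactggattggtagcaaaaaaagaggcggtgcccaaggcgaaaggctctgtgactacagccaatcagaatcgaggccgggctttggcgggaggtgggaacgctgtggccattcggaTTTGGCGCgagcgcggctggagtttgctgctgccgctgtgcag
TYMS held GCGGGAAA, the motif read from the other strand, at -39, and CDC6 held TTTGGCGC at 8. RRM2 and MCM10 held neither spelling in these 300 bases, although both rose. Other spellings of the motif were not searched, so these windows may hold sites that are not marked. CDC6 read 6.88, 6.64 and 6.69 at 100 µg/ml, against 5.61, 5.66 and 6.11 at 10 µg/ml, with the doses apart and a limma adjusted p of 0.000171.

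Of 38 measured genes of mitosis and the spindle, 17 (44.7%) were called higher and 0 lower, with a median of 0.62. MELK, a kinase of dividing cells, read 8.44, 8.41 and 8.32 at 100 µg/ml, against 7.47, 7.36 and 7.47 at 10 µg/ml, and rose by 0.96 ± 0.16 (limma adjusted p = 0.000882). The arrays of each dose lay close together and far from those of the other dose. The kinetochore genes SPC25, NDC80 and ZWINT rose by 0.97, 0.89 and 0.86, the checkpoint genes BUB1B and MAD2L1 by 0.84 and 0.77, the mitotic kinase CDK1 by 0.81 and topoisomerase TOP2A by 0.65. The proliferation marker MKI67 read 6.51, 6.72 and 6.77 at 100 µg/ml, against 6.32, 6.03 and 5.95 at 10 µg/ml; the doses were separate, but its change of 0.57 did not pass (limma adjusted p = 0.098). The regulators of mitotic exit and entry PLK1 (0.020), AURKA (-0.35), CCNB1 (0.37) and CDC20 (0.31) were not called either. The count was 5 without the 2 arrays that stand apart, 5 to 14 with 1 array left out, and 21 with only the 6 arrays fitted. SPC25, NDC80 and ZWINT lost their calls without those 2 arrays (adjusted p between 6.59e-05 and 0.195 over all alternatives of the 3 genes). The motif TTTGAA, the core of the cell cycle homology region of mitotic promoters, lay in 22 of 32 windows of the list (68.8%), 10 of 13 called, against 10% of tested genes.

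**Figure D3:**
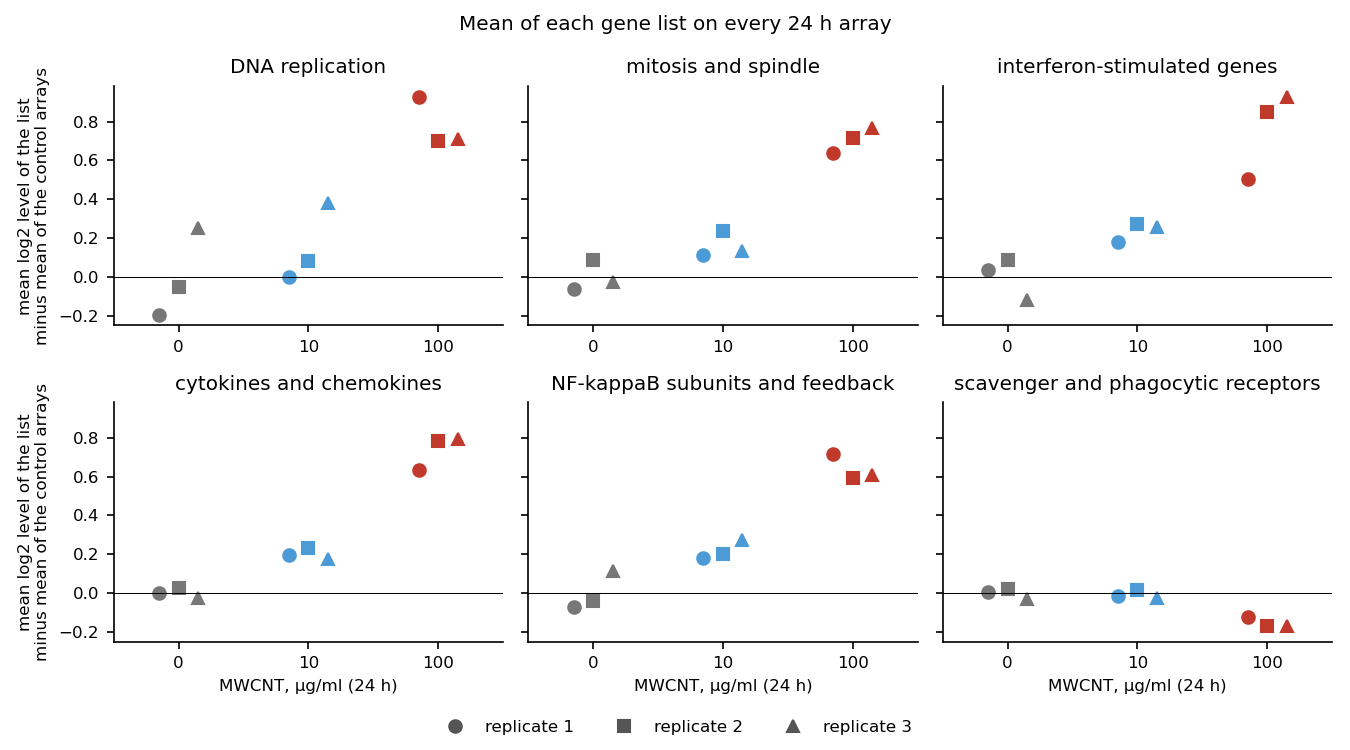
Mean level of 6 gene lists on every 24 h array. The x axis is the MWCNT dose (0, 10 and 100 µg/ml), the y axis the mean log2 level of the list's measured genes minus the mean of the 3 control arrays, and symbols are replicates 1 to 3. For the replication, mitosis, interferon, cytokine and NF-kappaB lists the 100 µg/ml arrays lie between 0.51 and 0.93 and above all 10 µg/ml arrays, and for the scavenger receptors they lie between -0.17 and -0.12 and below them.

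These 5 lists (replication, mitosis, interferon, cytokine and NF-kappaB) were those with the largest shares called higher, so their joint count is no separate support. Together they held 159 of the 10050 tested genes and 79 of the 312 rises (25.3%). Each had 0 members called lower, so their 0 of the 157 falls follows from the choice of lists. All 32 lists held 690 genes, 6.87% of those tested, with 100 of the rises (32.1%) and 15 of the falls (9.55%).

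Other large rises came from genes outside these groups. SPINK1, a secreted trypsin inhibitor, read 6.29, 6.09 and 5.88 at 100 µg/ml, against 4.07, 4.04 and 4.39 at 10 µg/ml. The doses were far apart, with a difference of 1.92 ± 0.18. All its 10 µg/ml and control arrays lay below the 25th percentile of their array, the level of the filter on dim probe sets. That level was 4.78 to 4.83 on the 6 arrays, so the size of the rise is uncertain. With readings below that level set to it, the difference was 1.27. SPINK1 lay above the level on the 3 arrays of 100 µg/ml and on 2 of the other 27, while the filter asked for 3 arrays. Without the group in which it was high it would not have passed, so its difference is a description with no test. DAZL, an RNA-binding protein known from germ cells, read 5.05, 4.93 and 5.21 at 100 µg/ml, against 3.26, 3.51 and 3.60 at 10 µg/ml. It lay above that level on the 3 arrays of 100 µg/ml and on 0 of the other 27, so it passed the filter only through the group in which it was high, and its difference, 0.25 with dim readings set to the level, is a description with no test. VCAM1, the adhesion molecule that binds integrins of leukocytes, read 7.30, 8.45 and 8.51 at 100 µg/ml, against 7.10, 6.99 and 6.26 at 10 µg/ml. The lowest 100 µg/ml array, replicate 1, lay only a little above the highest 10 µg/ml array. VCAM1 rose by 1.30 ± 0.25 (limma adjusted p = 0.00273) and lost its call when only the 6 arrays were fitted (adjusted p between 3.29e-06 and 0.106). PARM1, a mucin-like membrane protein, rose by 1.32 (limma adjusted p = 0.0018), and HCAR3, a receptor for hydroxylated fatty acids with the close copy HCAR2, by 1.24 (limma adjusted p = 0.0123), a call lost in 5 alternatives (adjusted p between 0.00034 and 0.0844). PLTP, a phospholipid carrier and target of the sterol receptor LXR, read 7.12, 7.44 and 7.36 at 100 µg/ml, against 6.69, 6.67 and 6.56 at 10 µg/ml, and rose by 0.67 ± 0.08 (limma adjusted p = 2.81e-05). PDGFRA, a growth factor receptor of fibroblasts, rose by 0.86 by its brightest probe set and had 0.20 on another, and its call was lost when only the 6 arrays were fitted, while the fibroblast genes COL1A2, DCN and LUM were not called or not kept. The part of other cell types in the rise of PDGFRA was not tested.

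Matrix and adhesion genes moved both ways: of 31 measured, 4 (12.9%) were higher and 3 (9.68%) lower, with a median of -0.062; with 1 array left out, 1 to 4 were called higher and 3 or 4 lower. The matrix protease MMP8 read 7.62, 7.55 and 7.69 at 100 µg/ml, against 6.27, 6.39 and 6.44 at 10 µg/ml, and rose by 1.25 ± 0.31 (limma adjusted p = 0.0184). MMP7 read 6.14, 8.61 and 8.64 at 100 µg/ml, against 6.39, 6.60 and 5.80 at 10 µg/ml. Replicates 2 and 3 of 100 µg/ml were far above the rest, while replicate 1 lay inside the range of the lower dose. MMP7 was called with 1.53 ± 0.41 (limma adjusted p = 0.0289); the estimate was 2.36 without replicate 1 of 100 µg/ml, and the call was lost in 6 alternatives (adjusted p between 5.75e-06 and 0.26). MMP2 read 7.86, 7.62 and 7.72 at 100 µg/ml, against 8.35, 8.33 and 8.25 at 10 µg/ml, and fell by 0.57 ± 0.12 (limma adjusted p = 0.00501). TGFBI, a matrix protein induced by transforming growth factor beta, fell by 0.46 and the growth factor PDGFA by 0.32. MMP8 lost its call in 5 fits that left out arrays (adjusted p between 0.000205 and 0.0887).

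The largest fall was that of NPTX1, a pentraxin known from neurons. NPTX1 read 5.80, 5.78 and 5.39 at 100 µg/ml, against 8.02, 7.94 and 7.58 at 10 µg/ml. The gap between the doses was several times the spread within either, and NPTX1 fell by 2.19 ± 0.28 on the log2 scale, 4.56-fold (limma adjusted p = 6.01e-05). GJA1, a connexin of gap junctions, read 4.29, 4.18 and 4.14 at 100 µg/ml, against 5.75, 5.94 and 4.88 at 10 µg/ml. Replicate 3 was the lowest of the 10 µg/ml arrays, and GJA1 fell by 1.32 ± 0.29 (limma adjusted p = 0.00879), a call lost without replicate 1 or 2 of 10 µg/ml (adjusted p between 1.51e-05 and 0.064). All its 100 µg/ml arrays lay below the array's 25th percentile, and with readings below that level set to it the difference was -0.72. IPCEF1, a partner of cytohesin exchange factors, read 8.50, 8.22 and 8.25 at 100 µg/ml, against 9.56, 9.53 and 9.63 at 10 µg/ml, and fell by 1.25 ± 0.20 (limma adjusted p = 0.000623).

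Further falls were among the largest of the comparison. CD300A, an inhibitory receptor of myeloid cells, read 7.64, 7.25 and 7.12 at 100 µg/ml, against 8.33, 8.34 and 8.63 at 10 µg/ml, and fell by 1.09 ± 0.16 (limma adjusted p = 0.000204); the other kept probe sets of the gene gave -1.14 and 0.015. FCMR, the receptor for the Fc part of IgM, read 8.88, 8.71 and 8.78 at 100 µg/ml, against 10.00, 10.01 and 9.77 at 10 µg/ml, and fell by 1.13 ± 0.19 (limma adjusted p = 0.000882). Thrombomodulin (THBD), an anticoagulant receptor, read 9.12, 9.07 and 9.23 at 100 µg/ml, against 10.36, 10.38 and 10.12 at 10 µg/ml, and fell by 1.15 ± 0.25 (limma adjusted p = 0.00832). These 3 genes were picked among falls whose arrays of the doses do not overlap, so that separation is no further support. The zinc finger gene ZNF395 fell by 1.32, the mitochondrial folate enzyme gene MTHFD2L by 1.22, PLAC8 by 1.14, NT5DC2 by 1.09 and the lectin-like CHODL by 0.95, all with limma adjusted p of 0.0187 or less. MTHFD2L lost its call in 5 alternatives (adjusted p between 0.000102 and 0.107).

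Of 9 measured targets of the aryl hydrocarbon receptor, a sensor of aromatic compounds, 3 (33.3%) were called lower and 0 higher, with a median of -0.0037; with 1 array left out, 1 to 3 were called lower. CYP1B1, a cytochrome P450 that oxidises aromatic hydrocarbons, read 8.80, 7.86 and 8.04 at 100 µg/ml, against 10.01, 9.84 and 10.22 at 10 µg/ml. Replicate 1 was the least reduced of the 100 µg/ml arrays, and CYP1B1 fell by 1.79 ± 0.25, or 3.45-fold (limma adjusted p = 0.00012). Its other kept probe sets gave changes of -1.83 to -0.35. TIPARP, an ADP-ribosyl transferase that feeds back on the receptor, read 8.98, 8.72 and 8.71 at 100 µg/ml, against 9.45, 9.41 and 9.64 at 10 µg/ml, and fell by 0.70 (limma adjusted p = 0.0419). NQO1, a quinone reductase that is also a target of the antioxidant factor NRF2, read 9.79, 9.52 and 9.56 at 100 µg/ml, against 9.87, 9.92 and 10.19 at 10 µg/ml, and fell by 0.37 (limma adjusted p = 0.0128). The calls of TIPARP and NQO1 were each lost in 6 alternatives (adjusted p between 0.000596 and 0.152, and between 0.000108 and 0.146). CYP1A1 (0.22), CYP1A2 (0.064) and AHR itself (0.23) were not called.

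Of 30 scavenger and phagocytic receptor genes, 4 (13.3%) were called lower and 0 higher, with a median of -0.10. TREM2, a lipid-sensing receptor of macrophages, read 11.57, 11.51 and 11.47 at 100 µg/ml, against 11.85, 11.82 and 11.99 at 10 µg/ml, and fell by 0.37 (limma adjusted p = 0.0255). FCER1G, the signalling chain of Fc receptors, fell by 0.27 (limma adjusted p = 0.00936), and the scavenger receptor STAB1 by 0.49 (limma adjusted p = 0.0454). The inhibitory Fc receptor FCGR2B was called with -0.71, although its arrays overlapped at 4.29, 4.97 and 4.72 for 100 µg/ml, against 5.64, 5.53 and 4.95 for 10 µg/ml. MARCO, a scavenger receptor for unopsonised particles, had a change of 0.50 that did not pass (limma adjusted p = 0.146), and MSR1 (-0.32), MRC1 (-0.53) and MERTK (-0.58) were not called. All 4 calls of this list were lost in at least 3 alternatives, and the count was 2 without the 2 arrays that stand apart and 1 to 3 with 1 array left out.

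**Figure D4:**
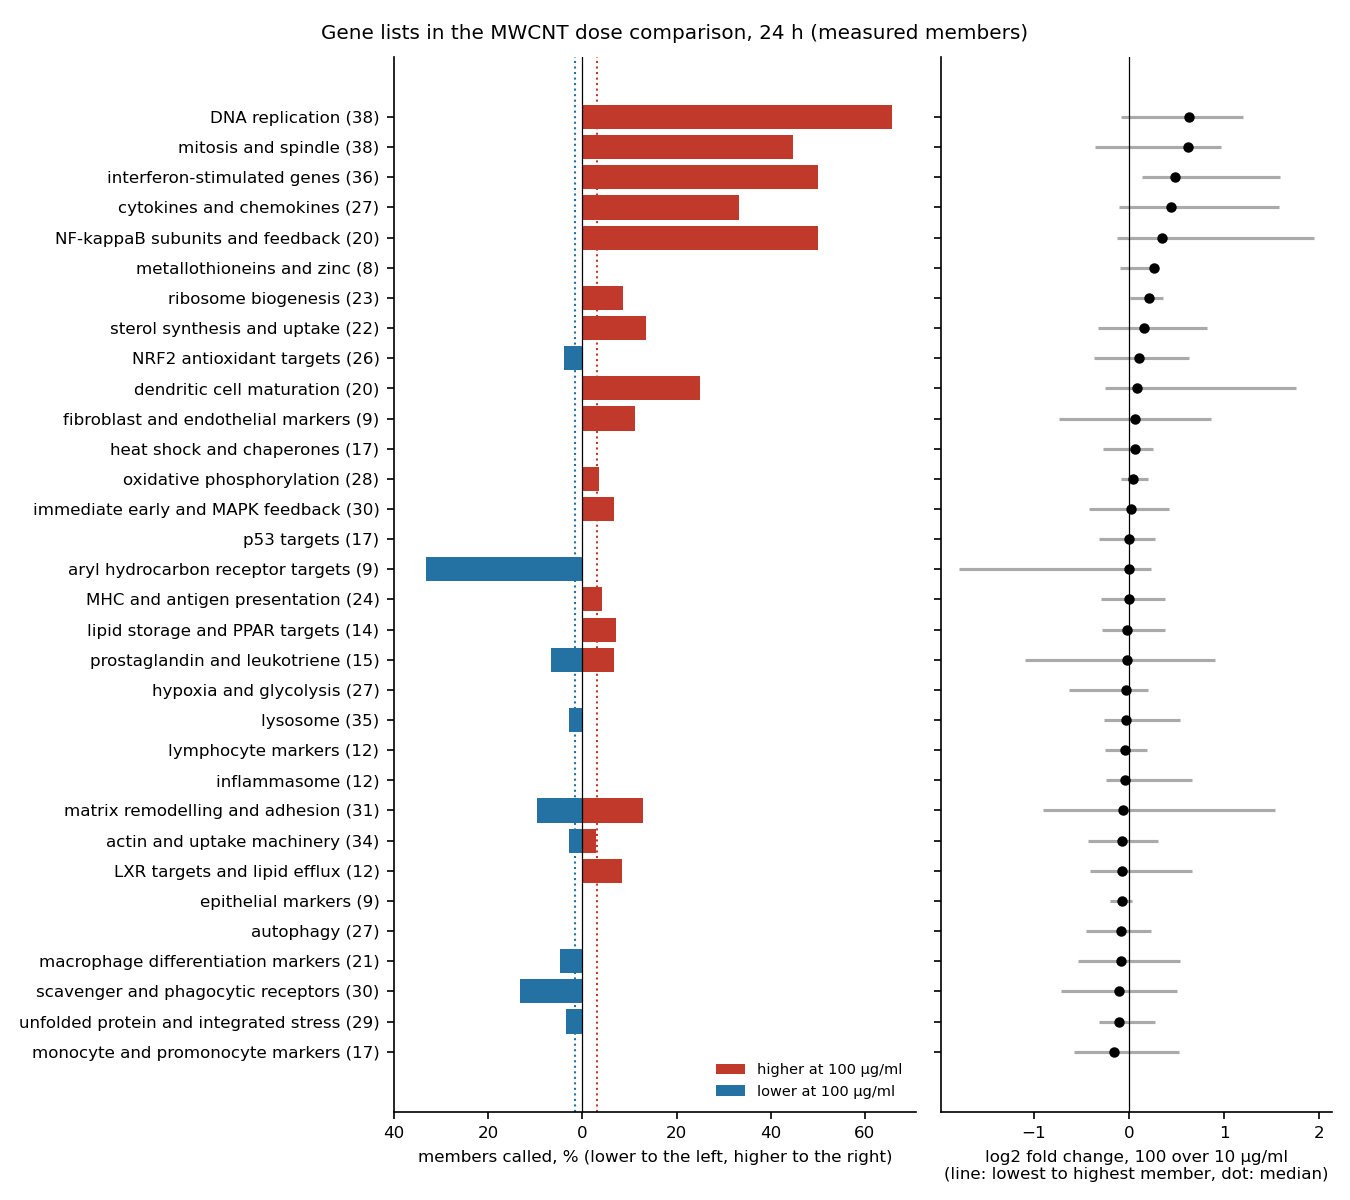
The 32 gene lists in the comparison of 100 with 10 µg/ml MWCNT at 24 h, with the number of measured members in parentheses. On the left, bars give the percentage of members called higher (red, to the right) or lower (blue, to the left), and dotted lines the percentage over all genes tested (3.1% and 1.56%). On the right, dots are the list medians and lines run from the lowest to the highest member's log2 fold change (100 over 10 µg/ml); DNA replication has the largest share, 65.8%.

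The remaining lists gave few calls. Of 15 prostaglandin and leukotriene genes, PTGS2, the inducible cyclooxygenase, read 6.40, 5.98 and 6.28 at 100 µg/ml, against 5.29, 5.23 and 5.43 at 10 µg/ml, and rose by 0.90 ± 0.18 (limma adjusted p = 0.00343). The phospholipase gene PLA2G4A fell by 0.44, while ALOX5, which makes leukotrienes, had a change of -1.09 that did not pass (limma adjusted p = 0.0884). Of 22 sterol synthesis genes, TMEM97, LSS and FDPS were called higher by 0.82, 0.39 and 0.24, and HMGCS1 was not (0.17); the calls of TMEM97 and LSS were lost in 8 and 7 alternatives, including both that took other probe sets, and that of FDPS in 4, and with 1 array left out the list's count was 0 to 3. All 23 ribosome biogenesis genes had a positive change with a median of 0.21, but only NOP16 and WDR12 were called, and these calls were lost in 9 and 3 alternatives. Of the other kept probe sets of NOP16, 2 had a change of opposite sign, the lowest -0.16. Of 30 immediate early genes, IER5 and GEM rose by 0.36 and 0.29, and both calls were lost without the 2 arrays that stand apart (limma adjusted p = 0.0533 for each, the highest over the alternatives, with lowest values of 0.000108 and 6e-05). ANXA1, TAP1, ACSL1 and CYCS rose by 0.20 to 0.38, and ELMO1, CRELD2, CD9 and SMPD1 fell by 0.25 to 0.43. Each of these 8 calls was lost in at least 2 alternatives, and another kept probe set of SMPD1 gave 0.076.

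Lists of stress pathways held few calls or none. HMOX1, the haem oxygenase of the NRF2 response, read 10.22, 10.37 and 10.38 at 100 µg/ml, against 10.23, 10.24 and 10.16 at 10 µg/ml, and the 95% interval of its log2 fold change was -0.11 to 0.34. Of 26 NRF2 targets only NQO1 was called; GCLM, a subunit of glutathione synthesis, had 0.63 (limma adjusted p = 0.0612). No member was called among 12 inflammasome, 8 metallothionein, 17 heat shock, 17 p53 target, 27 autophagy and 27 hypoxia genes, nor among 17 monocyte, 9 epithelial and 12 lymphocyte markers; with 4.67% called over all genes, lists of these sizes would hold few calls or none at the background share. MT2A had 0.27 with an interval of 0.044 to 0.49, and the p53 target CDKN1A had -0.15 with an interval of -0.36 to 0.051. The housekeeping genes GAPDH and ACTB had 0.011 (interval -0.10 to 0.12) and -0.037 (interval -0.17 to 0.10); the sign of GAPDH turned with another probe set or without certain arrays.

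Against the particle-free control at 24 h, 0 of 10050 genes (0%) were called at 10 µg/ml and 1309 (13%) at 100 µg/ml, 903 (8.99%) higher and 406 (4.04%) lower. At 10 µg/ml, 421 genes had an unadjusted p under 0.05 in limma, where 502.5 would be expected with no change. Fits of the 2 groups alone, with the replicate number as a block or with array weights also called 0. The 2 comparisons share the control arrays and each shares arrays with the dose comparison, so their values are only set side by side. TNFAIP6 differed from control by 0.97 at 10 µg/ml and 2.92 at 100 µg/ml, CCL4 by 0.82 and 2.39, CYP1B1 by -0.66 and -2.44, and NPTX1 by -1.12 and -3.31, so in these genes the lower dose lay between control and the higher dose. SPINK1 differed from control by 0.16 at 10 µg/ml and 2.08 at 100 µg/ml, CCL19 by -0.083 and 1.67, and GJA1 by -0.0074 and -1.32, so in these the lower dose lay close to control. For SPINK1 and CCL19 this closeness is poorly resolved, since their readings in both groups were mostly near or below the filter level. The DNA replication list had a median of 0.17 at 10 µg/ml and 0.81 at 100 µg/ml against control, and the interferon list 0.19 and 0.73.

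The same step from 10 to 100 µg/ml was made with TiO2-NB at 24 h, with no array in common, and 1355 genes (13.5%) were called there, 742 (7.38%) higher and 613 (6.1%) lower. Across the 10050 genes the log2 fold changes of the 2 materials correlated at 0.48, a description over genes, which are not independent replicates. The difference between the steps was called for 179 genes (1.78%), 71 (0.706%) with the MWCNT step higher and 108 (1.07%) with it lower. TNFAIP6, CCL4 and LAMP3 had TiO2-NB steps of 2.14, 1.97 and 1.69, and the difference from the MWCNT step was not called (95% intervals -1.38 to 0.98, -1.07 to 0.26 and -0.91 to 0.71).

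Some interferon-induced genes were among those with a higher MWCNT step. TRIM22 averaged 8.002 ± 0.41 at 100 and 6.95 ± 0.16 at 10 µg/ml MWCNT (SD, n = 3 each), against 6.48 ± 0.13 at 100 and 6.58 ± 0.098 at 10 µg/ml TiO2-NB, and its steps differed by 1.15 ± 0.19 (SE; limma adjusted p = 0.0014). IFI44L and CXCL10 differed by 1.16 and 1.11 (limma adjusted p = 0.0355 and 0.0363). Over the interferon list the median TiO2-NB step was 0.067 with 4 of 36 called higher, and the difference was called for 2 members. For DNA replication the median TiO2-NB step was 0.25 with 4 of 38 called higher, and the difference was called for 1 member, CDC6. Over all genes, 7.38% were called higher with TiO2-NB and the difference was called for 1.78%. Counts this small give no result about either list. CCL19 and VCAM1 also had higher MWCNT steps, by 1.61 and 1.40. SPINK1 had a difference of 1.13, a description with no test, since it passed the filter through the 100 µg/ml MWCNT arrays.

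CYP1B1, TIPARP and NQO1 had a lower step with MWCNT than with TiO2-NB. CYP1B1 averaged 8.24 ± 0.50 at 100 and 10.02 ± 0.19 at 10 µg/ml MWCNT, against 10.81 ± 0.18 at 100 and 10.55 ± 0.14 at 10 µg/ml TiO2-NB (SD, n = 3 each), a difference of -2.05 ± 0.35 (SE; limma adjusted p = 0.00158). TIPARP and NQO1 had TiO2-NB steps of 0.69 and 0.47, both called, and differences of -1.39 and -0.83 (limma adjusted p = 0.00803 and 0.000425). NPTX1 had a TiO2-NB step of -0.19 and a difference of -2.002 (limma adjusted p = 0.00585).

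In another group of genes the TiO2-NB step was the larger rise. CCR7 averaged 5.99 ± 0.11 at 100 and 4.77 ± 0.19 at 10 µg/ml MWCNT, against 7.71 ± 0.36 at 100 and 4.89 ± 0.16 at 10 µg/ml TiO2-NB (SD, n = 3 each). CCR7 rose with both materials, and the MWCNT step was lower by 1.59 ± 0.24 (SE; limma adjusted p = 0.000425). PTGS2 rose by 0.90 with MWCNT and 2.09 with TiO2-NB, a difference of -1.19 (limma adjusted p = 0.0117). IL24, a cytokine of the interleukin 10 family, and NR4A3, an inducible nuclear receptor, rose by 1.53 and 1.80 with TiO2-NB and had MWCNT changes of -0.11 and 0.17 (differences of -1.64 and -1.64, limma adjusted p = 0.000312 and 0.0183). The transcription factor gene FOXF1 rose by 1.11 with TiO2-NB and had -0.74 with MWCNT, a difference of -1.84 (limma adjusted p = 0.00184).

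**Figure D5:**
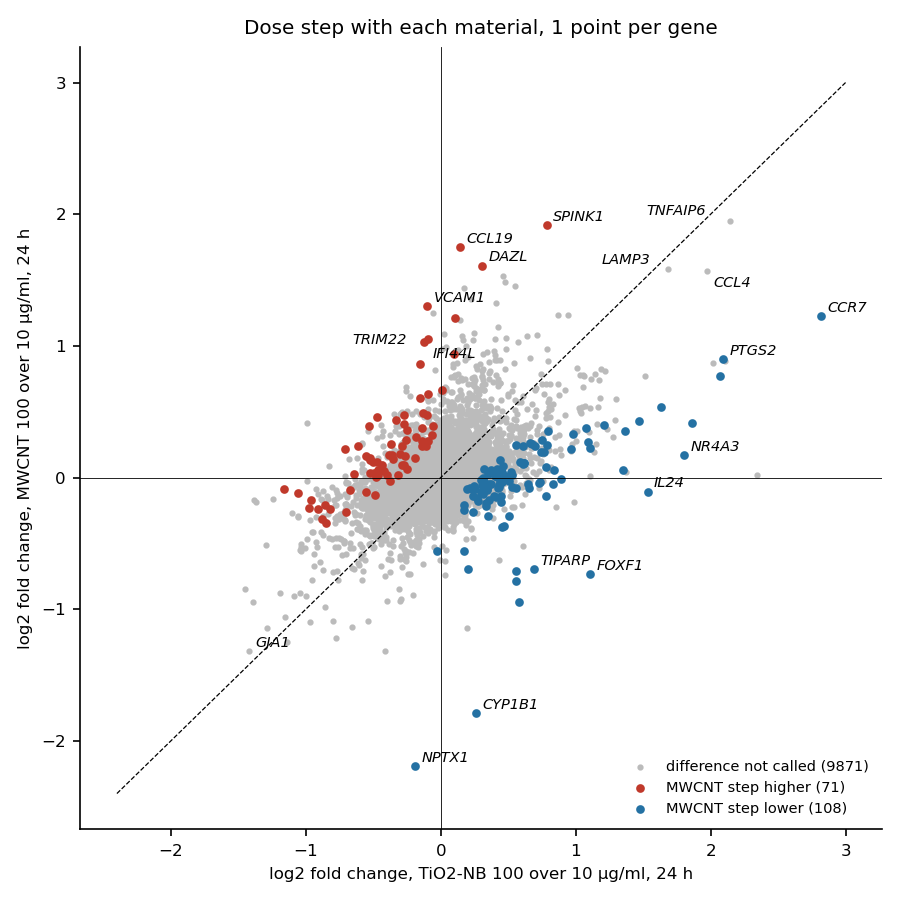
The step from 10 to 100 µg/ml at 24 h with each material, 1 point for each of 10050 genes. The y axis is the log2 fold change with MWCNT and the x axis that with TiO2-NB, and the dashed line marks equal steps. Genes whose difference was called are in red (71, MWCNT step higher) and blue (108, MWCNT step lower): SPINK1 and CCL19 lie far above the line, CYP1B1, NPTX1 and CCR7 far below it, and TNFAIP6, CCL4 and LAMP3 near it.

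At 1 h, 0 of 10050 genes (0%) were called between 100 and 10 µg/ml MWCNT. An unadjusted p under 0.05 in limma was found for 292 genes, where 502.5 would be expected with no change. Fits of these 2 groups alone, with the replicate block or with array weights also called 0. The difference between the 24 h and the 1 h step was called for 37 genes (0.368%), 18 (0.179%) higher and 19 (0.189%) lower at 24 h, and for 6 when only these 4 groups were fitted. CCL4 had a step of 1.57 at 24 h and -0.087 at 1 h, and the steps differed by 1.66 ± 0.32 (limma adjusted p = 0.0201). SPINK1 and CCL19 had steps of -0.0037 and 0.035 at 1 h, and differences of 1.92 and 1.72, that of SPINK1 as a description only. NPTX1 had 0.015 at 1 h and a difference of -2.21 (limma adjusted p = 0.0105), and CD300A 0.065 at 1 h and a difference of -1.16 (limma adjusted p = 0.0197). TNFAIP6 had 0.13 at 1 h, and its difference of 1.82 was not called (limma adjusted p = 0.21). The 1 h levels of MELK averaged 8.96 and 8.99 at 100 and 10 µg/ml, and those of RRM2 9.57 and 9.50. Both genes lay above their 24 h means at 100 µg/ml, 8.39 and 9.45. The mitosis genes SPC25 (6.78 and 6.61), NDC80 (8.29 and 8.28) and ZWINT (9.18 and 9.26) also lay above theirs, 6.10, 6.95 and 8.83. TYMS (9.84 and 9.77), CCNE2 (7.05 and 6.85), MCM10 (5.69 and 5.52) and E2F8 (5.36 and 5.34) lay below theirs, 10.10, 8.22, 5.73 and 5.90. At 1 h TRIM22 averaged 8.44 and 8.37 and IFI44L 7.31 and 7.30, above their 24 h means at 100 µg/ml, 8.002 and 6.79. IFIT1 (7.69 and 7.77) lay near its 24 h mean at 100 µg/ml, 7.71. LAMP3 (4.54 and 4.47) and CXCL10 (6.83 and 6.73) lay below theirs, 5.79 and 7.92. Whether 100 µg/ml raised the interferon, replication and mitosis genes, or kept a level lost by 24 h at 10 µg/ml, was not tested. Changes of level between 1 h and 24 h were not tested.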

How the data were processed

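RNA of 30 THP-1 cultures (10 groups of 3) was measured on Affymetrix arrays, and the comparison uses 6 of them. The deposited values are log2 intensities that the authors made with RMA, per the submitters' processing notes; the version is not given in the sources used here. Of 22277 probe sets, 19064 had 1 gene symbol, 1043 several and 2108 none; 62 were controls. Probe sets above the 25th percentile on at least 3 arrays were kept, and the brightest by mean stood for each gene, which gave 10050 genes. limma 3.58.1 in R 4.3.3 fitted 10 group means to all 30 arrays with 20 residual degrees of freedom, and p-values were Benjamini-Hochberg adjusted over all genes and called under 0.05. The procedure was tested on simulated data. Python 3.11.15 searched RefSeq promoter windows. The number of arrays limits the precision.

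The comparison, its members and the 32 gene lists were chosen with earlier results of these data known. Genes were named by rule: the 12 largest rises and falls with arrays that do not overlap, up to 4 called members per list, the 6 largest differences of each sign from TiO2-NB, and 10 genes given in every case (HMOX1, IL1B, CXCL8, TNF, CCL2, MT2A, CDKN1A, HMGCS1, GAPDH, ACTB). Other members were named as examples after their values were seen, as were the interferon promoters. Alternatives changed the scaling, the filter, the probe set, the arrays fitted, the variance prior, the array weights and the replicate block.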

Additional observations from a re-analysis of the deposited data

Results flagged for a closer look

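The genes below were singled out because the step from 10 to 100 µg/ml differed between the materials or between the times by limma's test of the difference itself. Each value is a difference of log2 fold changes, with limma's adjusted p in parentheses. DAZL and SPINK1 would not have passed the filter on dim probe sets without the 3 arrays of 100 µg/ml MWCNT at 24 h. Their differences are therefore no support for a change. SPINK1 also lay below the filter level on all 10 µg/ml MWCNT arrays at 24 h.

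The MWCNT step was the higher of the materials at 24 h for SPINK1 by 1.131 (0.0222), CCL19 by 1.609 (0.00177), DAZL by 1.303 (0.00152), VCAM1 by 1.402 (0.0359), CXCL10 by 1.105 (0.0363), TRIM22 by 1.146 (0.0014), IFI44L by 1.159 (0.0355), FDPS by 0.351 (0.0206), PLTP by 0.6564 (0.00174) and PDGFRA by 1.016 (0.00868). The MWCNT step minus the TiO2-NB step was negative, differing for NPTX1 by -2.002 (0.00585), CYP1B1 by -2.052 (0.00158), NQO1 by -0.8328 (0.000425), CCR7 by -1.592 (0.000425), IER5 by -0.4413 (0.0245), TIPARP by -1.385 (0.00803), PTGS2 by -1.191 (0.0117), FOXF1 by -1.843 (0.00184), IL24 by -1.641 (0.000312) and NR4A3 by -1.635 (0.0183).

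The MWCNT step at 24 h exceeded that at 1 h for SPINK1 by 1.922 (0.00133), CCL19 by 1.717 (0.00343), DAZL by 1.444 (0.00338), CCL4 by 1.657 (0.0201), TRIM22 by 0.978 (0.0199), PLTP by 0.7148 (0.00343), CCR7 by 1.162 (0.0265) and GEM by 0.3554 (0.0476). The 24 h step minus the 1 h step was negative, differing for NPTX1 by -2.205 (0.0105), IPCEF1 by -1.266 (0.0476), PLAC8 by -1.208 (0.0476), CD300A by -1.159 (0.0197), NT5DC2 by -1.238 (0.0157) and ELMO1 by -0.6774 (0.0265). No gene was called between the doses at 1 h, where 292 had an unadjusted p under 0.05 in limma, against 502.5 expected with no change.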

How the results depend on the processing

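The count of 469 called genes (312 higher, 157 lower at 100 µg/ml) was between 413 and 526 under the other scalings, filters, choices of probe set, arrays fitted, variance prior and replicate block. With every kept probe set tested on its own, 535 probe sets were called, which is not a count of genes. The gene count was 1646 (910 higher, 736 lower) with array weights, which moved the share of rises among called genes to 55.3%, against 66.5%. Without the 2 arrays that stand apart, an alternative chosen after seeing the data, it was 253 (159 higher, 94 lower). With 1 array left out it was 197 to 411, with 121 to 267 rises and 68 to 157 falls; the cause was not tested. All 469 genes kept their sign except 1 with the most variable probe set and 3 with the median over probe sets, among those still tested under each alternative. Of 70 called genes named by rule, 28 kept their call under all alternatives and 42 lost it under at least 1. While 0 changed sign under these alternatives, 3 of them (CD300A, NOP16 and SMPD1) had another kept probe set of opposite sign. Among named genes that were not called, GAPDH turned to -0.0044 with the most variable probe set and lay between -0.030 and 0.061 with 1 array left out, and NR4A3 lay between -0.091 and 0.37 with 1 array left out. The difference between 24 h and 1 h was called for 6 genes, against 37, when only its 4 groups were fitted. The replicate numbers were not taken to pair the arrays: deviations of same-numbered arrays correlated at -0.52, 0.20 and -0.53, and the replicate block gave 526 calls (339 higher, 187 lower). Each 100 µg/ml array correlated best with a 10 µg/ml array of another number, replicate 1 with 3 (0.68), 2 with 1 (0.47) and 3 with 2 (0.41); whether numbers were crossed between the groups is not known, and no crossed pairing was fitted. With 3 arrays a group and no probe-level data used here, small changes of dim genes are poorly resolved.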
